A study of Danio rerio with 4 samples.

Results

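Broad H3K4me3 domains were drawn from the H3K4me3 peak lists of DN and Ctrl ventricles of zebrafish, taken 7 days post-amputation (dpa). A domain was a stretch of the GRCz11 assembly in which at least 1 list held a peak of 3000 bp or more, and broad peaks of the lists that overlapped by at least 1 bp were joined into 1 domain. Chromosomes 1 to 25 were used, without chromosome 4 from position 27000000 on. There were 1087 such domains among 39071 loci with a peak of any width. Of the domains, 892 (82.1%) were broad in DN only, 155 (14.3%) were broad in both lists and 40 (3.68%) were broad in Ctrl only. The domains and their classes were chosen by the measured peak width, and fold and q-value come from the same peak calls, so all 3 are described here with no test.

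The DN fish were adults with a pair of transgenes, kdrl:CreER and a ubi construct in which a loxp-DsRed-STOP-loxp cassette precedes DN-xBrg1, a dominant-negative Xenopus Brg1. Treatment with 4-hydroxytamoxifen (4-HT) switches DN-xBrg1 on in cells where the kdrl promoter drives CreER, mainly endothelial cells. The Ctrl fish were adults with the same ubi construct and no kdrl:CreER, and both groups were given 4-HT before the amputation. The study's results give 3 days of 4-HT before surgery, while its methods give a shorter bath with amputation 3 days later. Each group had 1 H3K4me3 library from a pool of about 25 hearts, with atrium and outflow tract removed, and 1 input library that was not analysed here. The whole ventricle was used, so endothelial chromatin was only a part of the material, and a change in the make-up of the cells and a change of the mark within a cell cannot be told apart. With 1 library per group no difference has a replicate check, and intervals cover counting error only.

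H3K4me3, the trimethylated form of lysine 4 of histone H3, marks nucleosomes at the promoters of active genes, and most of its peaks are narrow and centred near a transcription start. A minority spread over several kilobases, and in mammalian cells such broad domains are known to lie at genes that give a cell type its identity. Brg1 is the ATPase of the SWI/SNF complexes, which move and evict nucleosomes. Genes and sequences at the domains were not analysed here because no GRCz11 annotation or genome was at hand. The domains are therefore given by position, and the heart label was not checked against marker genes.

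Broad peaks were more numerous in DN than in Ctrl ventricles. The DN list held 1055 peaks of 3000 bp or more among 33972, a share of 3.11% (95% exact binomial interval 2.92 to 3.30). The Ctrl list held 200 among 16466, a share of 1.21% (1.05 to 1.39). The DN list thus had more peaks in all and also a larger share of broad ones. For each broad Ctrl peak there were 5.28 broad DN peaks (95% exact conditional interval 4.53 to 6.17), and on each of the 25 chromosomes the broad DN peaks outnumbered the broad Ctrl peaks, by 2.28 times on chromosome 16 to 20.7 times on chromosome 6. Broad peaks made up 4.65 Mb of the 29.5 Mb listed in DN (15.7%) and 1.096 Mb of the 11.5 Mb listed in Ctrl (9.50%). Converted to depth, the lowest fold of each list came to 7.00 fragments in DN and 7.31 scaled fragments in Ctrl. The Ctrl value was taken to stand for 8 fragments scaled by 0.914, an assumption on which all Ctrl depths in fragments rest. When only DN peaks with an average depth of at least 8 fragments were counted, 1030 broad DN peaks were left, which is 5.15 per broad Ctrl peak. This filter took out whole peaks and left the ends of the others as called. Whether the lower floor in DN widened or joined peaks was not tested.

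The excess in DN depended on the width asked for, and it was not found among the widest peaks. There were 2.39 DN peaks per Ctrl peak at a width of 500 bp or more and 4.65 at 2000 bp or more. The ratio was 5.28 at 3000 bp, 4.43 at 4000 bp (439 DN and 99 Ctrl peaks) and 3.73 at 5000 bp (220 DN and 59 Ctrl peaks). At 7500 bp or more the lists held 47 DN and 30 Ctrl peaks, and at 10000 bp or more 17 DN and 20 Ctrl peaks, a ratio of 0.85 (0.418 to 1.71). DN peaks were therefore the more numerous at thresholds up to about 5 kb, and at 10 kb the counts were close. When the 200 widest DN peaks, of 5151 bp or more, were set against the 200 broad Ctrl peaks, 119 domains were DN-only, 78 were shared and 117 were Ctrl-only. Equal numbers of peaks hold the DN-only and Ctrl-only counts close to each other, so their balance says nothing on the excess. The thresholds also differed, and a Ctrl-only domain of this count could hold a DN peak of 3000 to under 5151 bp.

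**Figure D1:**
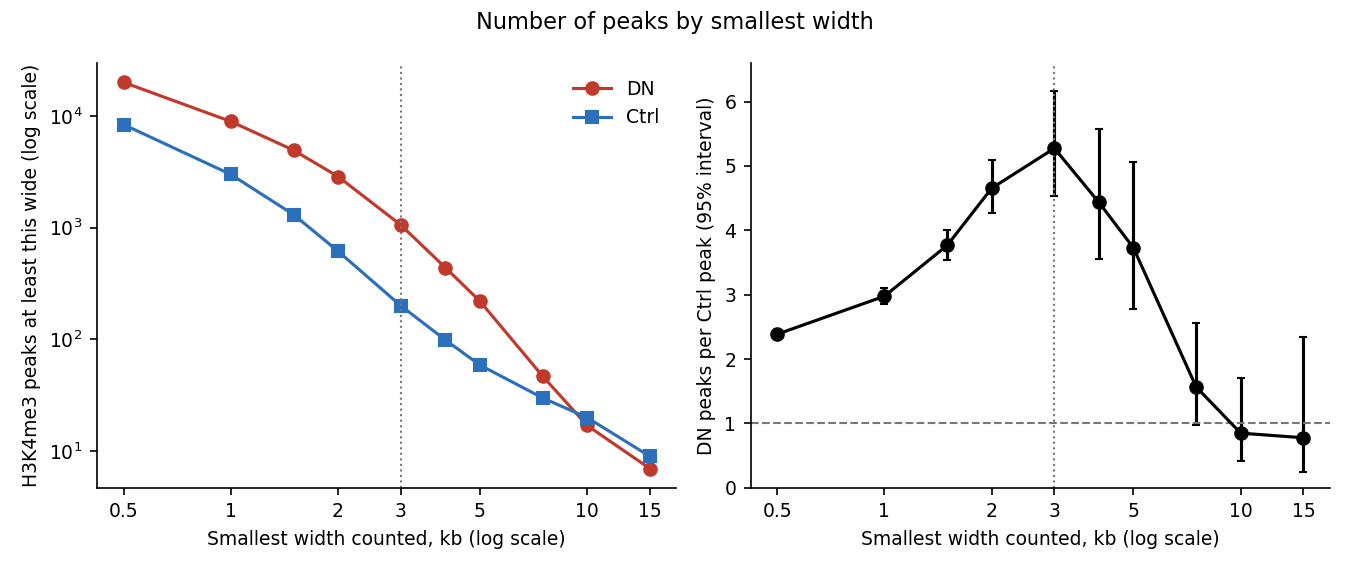
Number of H3K4me3 peaks at least as wide as the value on the x axis (kb, log scale) in DN (circles) and Ctrl (squares) on the left, and DN peaks per Ctrl peak with the 95% exact interval on the right, with the dotted line at 3 kb and the dashed line at a ratio of 1. The ratio is highest at 3 kb (5.28) among the widths shown and is below 1 at 10 kb (0.85) and 15 kb (0.78).

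Nearly all domains broad in DN only already held a peak in Ctrl. Of the 892, 60 (6.73%) had no Ctrl peak, 504 (56.5%) overlapped 1 Ctrl peak and 328 (36.8%) overlapped 2 or more, most often 2 (280 domains) and at most 5. Of all broad DN peaks 94.3% overlapped a Ctrl peak, against 31.3% of DN peaks of any width, and 33.9% overlapped 2 or more, against 1.93%. A wider peak has more room for an overlap, and the share went up with each step in width: 12.3% at 200 to under 500 bp, 25.2% at 500 to under 1000 bp, 60.3% at 1 to under 2 kb and 83.5% at 2 to under 3 kb. Overlap with 2 or more Ctrl peaks was found in 10.3% of DN peaks of 2 to under 3 kb. The widest Ctrl peak within a DN-only domain was under 1000 bp in 297 domains, 1000 to under 2000 bp in 367, 2000 to under 2500 bp in 99 and 2500 to under 3000 bp in 69. These widest Ctrl peaks had a median −log10 q of 2.62, beside 2.03 over all Ctrl peaks under 3000 bp. A Ctrl peak with a −log10 q of at least 4 stood in 22.4% of the DN-only domains, a cut that asked for a higher fold in Ctrl than in DN. The Ctrl peaks covered a median of 36.6% of the domain, which had a median length of 3706 bp.

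Where a DN-only domain held a single Ctrl peak, the DN peak mostly ran past it at both ends. This was so in 475 of the 504 domains. The rule sets a DN peak of 3000 bp or more against a Ctrl peak under 3000 bp, which favours this. The extension had a median of 337.5 bp on the shorter side and 1875 bp on the longer side of the same peak, sides told apart by their length. It did not favour an end of the chromosome, with medians of 1035 bp on the low-coordinate side and 994.5 bp on the high-coordinate side. Where a DN-only domain held several Ctrl peaks, the stretch that the DN peak bridged between neighbouring Ctrl peaks added up to a median of 1072 bp, and to 601 to 5992 bp over the 328 domains. The smallest gap between neighbouring peaks was 601 bp in either list, so a shorter break would not show.

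The folds of the DN and Ctrl peaks were close in these domains, each averaged over its own peak and not over the same stretch. Fold, the average signal of a peak over the genome-wide background of its own library, had a median of 4.48 in DN over the 892 domains and 4.01 in Ctrl over the 832 with a Ctrl peak, taking the widest peak of each list. The median ratio of DN to Ctrl fold was 1.115, beside 1.1002 over all 10503 loci listed in both. A DN fold at least 1.25 times the Ctrl fold was found in 188 of the 832 (22.6%), against 27.5% of those 10503 loci, and a Ctrl fold at least 1.25 times the DN fold in 12 (1.44%), against 5.7%. The ratio of folds in DN-only domains was thus near that of shared loci in general. In width, which chose them, the summed DN peaks were at least 1.5 times as long as the summed Ctrl peaks in 743 (89.3%), against 57.4% of all shared loci.

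The longer a DN-only domain was, the more separate Ctrl peaks it took in, while the part of it that Ctrl peaks covered stayed similar. A longer domain has more room for Ctrl peaks, each under 3 kb by the rule, which favours this rise. Of 578 domains of 3 to under 4 kb, 162 (28.0%) overlapped 2 or more Ctrl peaks, and the median covered part was 36.3%. Of 119 domains of 5 to under 7.5 kb, 76 (63.9%) did, and the median covered part was 35.8%. Among the 13 domains of 7.5 kb or more, 12 (92.3%) overlapped 2 or more Ctrl peaks and the median covered part was 33.02%, and 7 of these 13 lay on chromosome 22. Median DN fold was 4.50 at 3 to under 4 kb, 4.50 at 4 to under 5 kb and 4.36 at 5 to under 7.5 kb. It was 3.77 in the 13 longest, so a lower signal showed only there. On chromosome 22, DN-only domains of the stretch described below had a median DN fold of 3.55, beside 4.57 for DN-only domains outside it.

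Each of the 5 widest DN-only domains was 1 DN peak over 2 to 5 narrower Ctrl peaks. At chr22:1719824-1732334 a DN peak of 12511 bp with a fold of 3.66 stood over 5 Ctrl peaks of 230 to 2958 bp with folds of 3.24 to 4.49. At chr3:239054-250800 a DN peak of 11747 bp with a fold of 4.13 stood over 4 Ctrl peaks of 200 to 1169 bp, which covered 21.7% of it. At chr8:20438877-20449741 a DN peak of 10865 bp with a fold of 4.74 stood over 3 Ctrl peaks, the widest of 2455 bp with a fold of 4.85. In each of these 3 domains some Ctrl signal lay under the DN peak and was broken by gaps. The remaining domains, chr22:2482189-2491726 and chr22:2778139-2787351, had DN widths of 9538 and 9213 bp and their widest Ctrl peaks measured 826 and 1090 bp. Ctrl peaks covered only 11.8% and 26.8% of them.

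The 60 DN-only domains without any Ctrl peak were short and weak. Their length had a median of 3334 bp (3013 to 5340 bp) and their DN fold a median of 3.58 (3.00 to 4.54), under the 4.48 of all DN-only domains. The nearest Ctrl peak lay at a median distance of 4.09 kb, and 37 of the 60 had one within 10 kb. Beyond any Ctrl peak overlapped, 56.2% of all broad DN peaks and 49.2% of narrower ones had a Ctrl peak within 10 kb. Such nearness was therefore not particular to these 60. The longest, chr15:633673-639012, had a DN fold of 3.75 and its nearest Ctrl peak was 3.01 kb away.

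At the other end of the range, 22 DN-only domains had a DN fold of 7 or more, and each of them held a Ctrl peak. Their median fold was 7.48 in DN and 5.27 in Ctrl, and their widest Ctrl peak had a median width of 2053.5 bp. The highest, chr4:22470081-22473235, had a DN peak of 3155 bp with a fold of 9.74 and a Ctrl peak of 2464 bp with a fold of 6.40. At chr14:33043441-33050869 a DN peak of 7429 bp had a fold of 8.42, and the widest of 3 Ctrl peaks measured 2093 bp with a fold of 3.97. These domains were higher in DN in both width and fold. They were chosen here for their DN fold after the values were seen, which favours a higher fold in DN. The DN-only rule itself sets a wider DN peak.

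**Figure D2:**
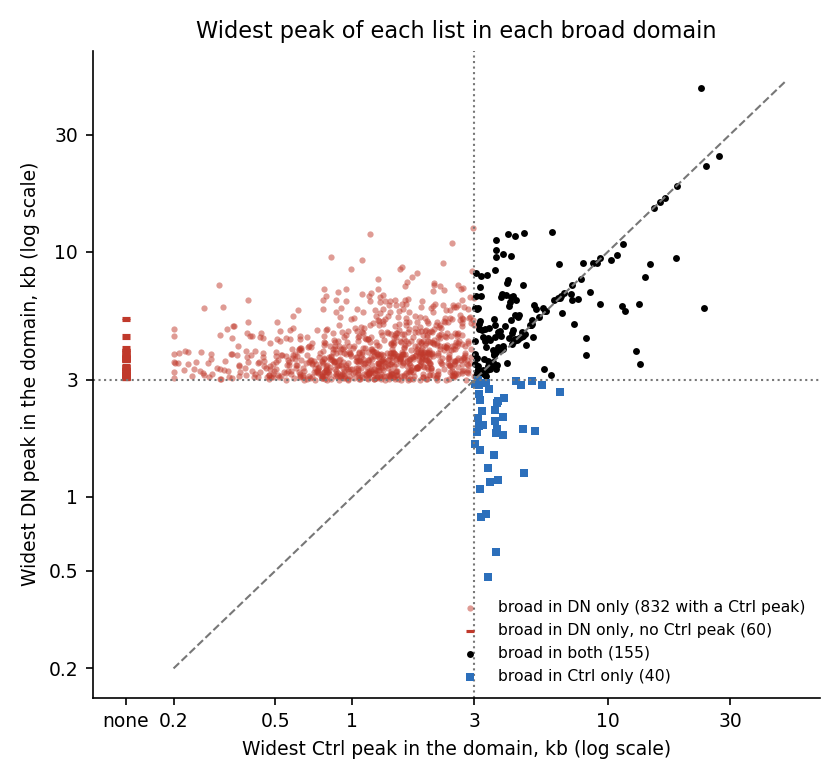
Widest DN peak (y axis, kb, log scale) against widest Ctrl peak (x axis, kb, log scale) in each of the 1087 domains, with the 3 kb threshold dotted and equal width dashed, and dashes at the left for the 60 DN-only domains with no Ctrl peak. Most points lie in the upper left field, where 832 DN-only domains held a Ctrl peak under 3 kb. Of the 19 domains broad in both with a Ctrl peak of 10 kb or more, 18 have a narrower DN peak. The exception is the 46425 bp DN peak. Choosing these 19 by Ctrl width favours a narrower DN peak.

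The 155 domains broad in both held 163 (15.5%) of the broad DN peaks and 160 (80.0%) of the broad Ctrl peaks. Over these 155 domains the widest DN peak was the wider in 104, with a median ratio of DN to Ctrl width of 1.04 (0.996 where both lists had to reach 5000 bp), beside 1.72 over all shared loci. Summed DN width was at least 1.5 times the summed Ctrl width in 21 (13.5%) and never the reverse, against backgrounds of 57.4% and 6.5%, figures that the rule affects since both lists had to reach 3 kb. In fold, fewer domains stood out in DN: the DN fold was at least 1.25 times the Ctrl fold in 19 domains (12.3%), against 27.5% of shared loci, and the Ctrl fold at least 1.25 times the DN fold in 38 (24.5%), against 5.7%.

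Among the domains broad in both, DN and Ctrl compared differently at high and at low signal. A mean fold, the geometric mean of the DN and Ctrl fold, of 7 was used to divide the domains, a value chosen after the folds were seen. It was not a gap in the folds, with 33 domains at 5 to under 7 and 20 at 7 to under 10. Of the 52 domains with a mean fold of 7 or more, 51 had a lower fold in DN, with a median of 9.19 in DN and 12.2 in Ctrl and a median ratio of 0.755. Of the 103 below it, 37 had a lower fold in DN, with a median of 4.86 in DN and 4.37 in Ctrl and a median ratio of 1.09. Written as fragments, under the assumed Ctrl scale, the median depth of the high-signal domains was 24.7 in DN and 34.3 in Ctrl. The high-signal domains were thus weaker in DN and the others slightly stronger, and with 1 library of each the part of the immunoprecipitation or of the input signal in this was not tested.

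Narrower loci with the same mean fold shared this in part. Of the 134 loci with peaks of both lists, all under 3 kb, and a mean fold of 7 or more, 80 (59.7%) had a lower fold in DN, and the median ratio was 0.92. A Ctrl fold at least 1.25 times the DN fold was found in 33 (63.5%) of the 52 high-signal broad domains and in 31 (23.1%) of these narrower loci. Among narrower loci under that mean fold the lower fold was in DN in 32.9%, with a median ratio of 1.104.

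The widths divided the domains in the same way. In the 52 high-signal domains the DN peak was the wider in 15, with a median width ratio of 0.979, and in the 103 others in 89, with a median of 1.22. Narrower loci divided likewise, so this was not particular to broad domains. Their median width ratio was 1.01 at a mean fold of 7 or more and 1.67 under 7. Several DN peaks stood within 17 of the 52 and several Ctrl peaks within 2 of them, whereas several DN peaks stood within 5 and several Ctrl peaks within 28 of the 103. The ends of the peaks were nearly the same in the high-signal domains where each list had a single peak: over 34 such pairs the ends differed by a median of 37.5 bp, and in 17 pairs both ends were within 100 bp. The Ctrl peak ran past the DN peak at both ends in 15 of the 34, and the DN peak past the Ctrl peak in 6. In the 71 such pairs with a lower mean fold the median was 187.5 bp, and the DN peak ran past the Ctrl peak at both ends in 43.

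**Figure D3:**
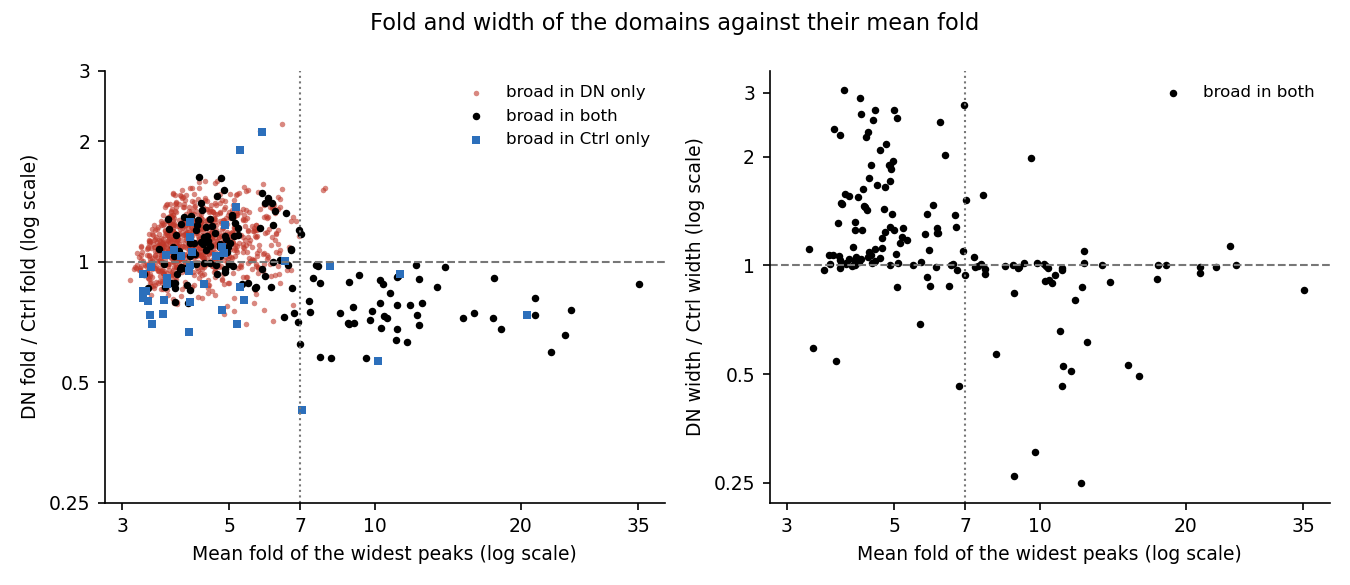
Ratio of DN to Ctrl fold (left, log scale) and of DN to Ctrl width (right, log scale, domains broad in both) against the mean fold of the widest DN and Ctrl peaks (log scale), with the dashed line at equality and the dotted line at a mean fold of 7. Right of the dotted line 51 of the 52 domains broad in both have a ratio of folds under 1, and left of it 89 of 103 have a ratio of widths over 1.

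The strongest domains had nearly the same extent in both lists and a lower fold in DN. At chr7:53010889-53017484, the highest in both lists, the DN fold was 33.02 and the Ctrl fold 37.5, and the widths stood in a ratio of 0.856. At chr16:25927185-25936214 the DN peak had a fold of 19.97 and the Ctrl peak of 30.5, and at chr17:39939358-39942933 the DN peak had a fold of 22.1 and the Ctrl peak of 29.3. At chr11:17565019-17569436 the DN fold was 17.8 and the Ctrl fold 29.97, with a width ratio of 0.99. The DN fold was the lower in all 4, and the widths differed by under 15%. The exception among the 52 was chr11:44720594-44726848, with a fold of 7.61 in DN and 6.50 in Ctrl.

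The longest domains broad in both showed joined peaks in either list. At chr16:36393051-36439475 a single DN peak of 46425 bp with a fold of 6.39 stood over 5 Ctrl peaks, the widest of 23009 bp with a fold of 6.31, and the Ctrl peaks covered 92.3% of it. At chr16:15652708-15680141 the widest DN peak measured 24594 bp with a fold of 9.72 and the Ctrl peak 27258 bp with a fold of 10.8. At chr14:20090202-20114477 the widest DN peak measured 22241 bp with a fold of 14.9 and the Ctrl peak 24276 bp with a fold of 20.6. Each list covered 92.3% or more of these 3 domains, in different numbers of peaks. At chr8:34790111-34813896 the order was turned: 4 DN peaks of 3090 to 5916 bp with folds of 5.25 to 12.04 stood against a single Ctrl peak of 23705 bp with a fold of 12.2. The neighbouring chr8:34770757-34789393 had a DN peak of 18445 bp with a fold of 7.58 and a Ctrl peak of 18637 bp with a fold of 10.8.

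The extremes of the width ratio repeated both forms. The 5 largest ratios, 2.697 to 3.05, came from DN peaks of 8217 to 11780 bp over 1 to 4 Ctrl peaks with folds under 7. At chr2:14493303-14504478, the largest, the DN peak of 11176 bp had a fold of 4.06 and the widest of 3 Ctrl peaks measured 3661 bp with a fold of 3.81. At chr21:7257761-7265977 a DN peak of 8217 bp with a fold of 4.54 stood over a single Ctrl peak of 3046 bp with a fold of 4.56. The 5 smallest ratios, 0.25 to 0.463, came from Ctrl peaks of 8188 to 23705 bp that were divided into 2 to 4 DN peaks. At chr21:25850023-25863358 the DN list held 4 peaks of 1102 to 3482 bp with folds of 5.73 to 8.32, and the Ctrl list 1 peak of 13314 bp with a fold of 9.36. At chr10:16820682-16833587 the widest of 4 DN peaks measured 3920 bp with a fold of 8.25, and the Ctrl peak 12906 bp with a fold of 11.5. The ratio sets the widest peak of each list against the other, so a list divided into several peaks scores lower by this rule. Choosing the extremes therefore favours divided peaks. In summed width the 5 smallest stood at 0.762 to 0.883, and DN peaks covered 76.2% to 88.3% of these domains. The 5 largest stood at 1.40 or more in summed width. The widest Ctrl peak had a fold of 3.81 to 6.37 at the 5 largest ratios and of 7.89 to 12.2 at the 5 smallest.

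**Figure D4:**
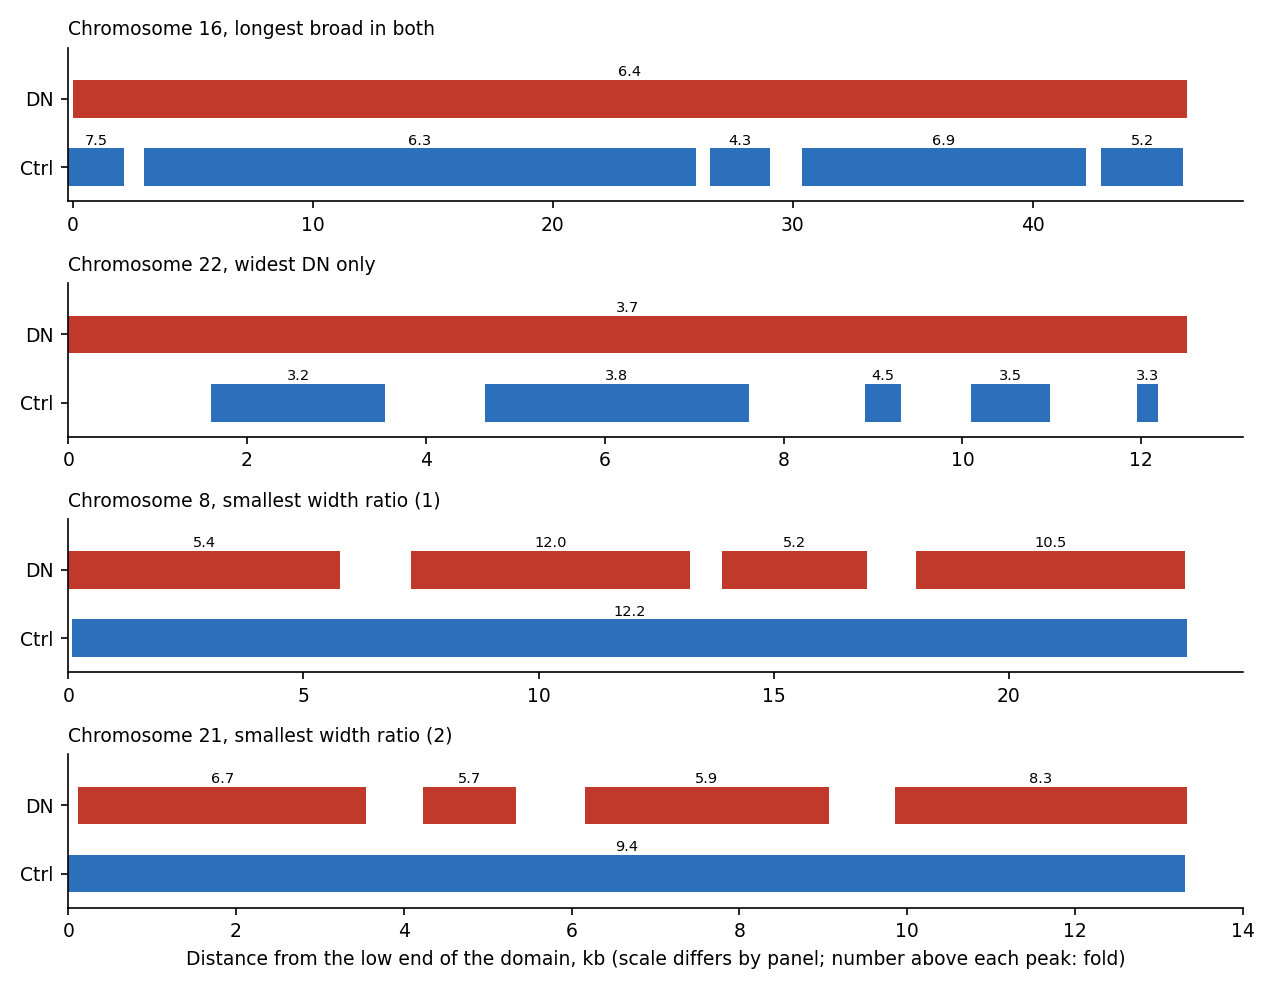
DN peaks (upper bars) and Ctrl peaks (lower bars) in 4 domains, by distance from the low end of the domain in kb (the scale differs between panels), with the fold of each peak above its bar. In the upper pair of panels 1 DN peak spans 5 Ctrl peaks, and in the lower pair 4 DN peaks stand against 1 Ctrl peak.

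All 40 domains broad in Ctrl only held a DN peak, and 26 of them (65.0%) held 2 or more. A DN peak with a −log10 q of at least 4 was held by 52.5%. This cut asked for a lower fold in DN, so the share is not on a like footing with that of Ctrl peaks in DN-only domains. Of the broad Ctrl peaks 24.0% overlapped 2 or more DN peaks, against 0.79% of Ctrl peaks of any width, and 100% overlapped at least 1, against 68.2%. Among Ctrl peaks of 2 to under 3 kb these shares were 9.40% and 97.6%, so the 100% was close to that of peaks of near width. The DN peaks covered a median of 70.9% of the domain, beside the 36.6% that Ctrl peaks covered in DN-only domains. The DN list was the longer, with 29.5 Mb listed against 11.5 Mb in Ctrl, which favours a higher coverage by DN peaks. The widest DN peak had a median width of 1996 bp and was 2500 bp or more in 12 domains. Where several DN peaks stood in a domain, the space between them had a median of 846.5 bp (629 to 1914 bp). Median fold was 4.18 in DN and 4.20 in Ctrl, and the fold was lower in DN in 26 of the 40. The median ratio of DN to Ctrl fold was 0.919, beside 1.1002 over all 10503 shared loci. A Ctrl fold at least 1.25 times the DN fold was found in 11 (27.5%), against 5.7% of shared loci. The reverse was found in 4 (10%), against 27.5%.

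The 5 widest Ctrl-only domains were each divided in DN. At chr20:51875872-51882380 DN peaks of 1643 and 2674 bp with folds of 3.65 and 3.29 stood against a Ctrl peak of 6509 bp with a fold of 4.09. At chr23:15995551-16001072 DN peaks of 1483 and 2852 bp with folds of 13.7 and 7.63 stood against a Ctrl peak of 5522 bp with a fold of 13.5. Of the DN peaks of this domain, the narrower had a fold close to that of the Ctrl peak and the wider a lower one. At chr24:16276502-16281669 the DN list held 3 peaks, the widest of 1853 bp with a fold of 5.00, and the Ctrl peak of 5168 bp had a fold of 4.76. At chr3:56742995-56748030 and chr9:2253569-2258263 the widest DN peaks measured 2975 and 1257 bp, and the Ctrl peaks 5036 and 4695 bp.

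Among the Ctrl-only domains 5 had a Ctrl fold of 7 or more, by which they were chosen here after the values were seen, so that a lower DN fold is favoured. At chr2:19429091-19432794 a DN peak of 2464 bp had a fold of 17.7 and the Ctrl peak of 3704 bp a fold of 24.1, and a high-signal domain broad in both lay 3.36 kb away. At chr7:59523487-59527107 the widest DN peak of 2271 bp had a fold of 4.61 and the Ctrl peak of 3621 bp a fold of 10.8. The fold of the widest DN peak was under the Ctrl fold in all 5, although at chr23:15995551-16001072 the narrower DN peak was above it. The closest was chr4:26866831-26871189, with 7.97 in DN and 8.16 in Ctrl, close to the left-out part of chromosome 4.

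The domains were spread over all 25 chromosomes, with a median of 0.772 domains per Mb. Chromosome 22 stood apart with 105 domains, or 2.68 per Mb, and chromosome 25 had the fewest, 14, or 0.373 per Mb. Of the 1087 domains, 342 (31.5%) lay under 50 kb from the next, in 124 runs. Without the chromosome 22 stretch described below, 271 of 1016 domains did. The same share over loci of any width was not computed. Broad peaks also had more peaks near them than narrower ones: another DN peak lay within 10 kb of 87.4% of broad and 72.7% of narrower DN peaks, and another Ctrl peak within 10 kb of 78% of broad and 49.9% of narrower Ctrl peaks.

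The excess on chromosome 22 came from a single stretch. Between 1319123 and 2959424 lay 71 domains in 1.64 Mb, or 43.3 per Mb, and the rest of the chromosome held 34, or 0.907 per Mb. Of the 71 domains 66 were broad in DN only, 3 in both and 2 in Ctrl only. DN peaks covered 49.2% and Ctrl peaks 16.1% of the stretch, with 454 DN and 304 Ctrl peaks of any width and 69 DN and 5 Ctrl peaks of 3000 bp or more. The signal was low in both lists, with a median fold of 3.62 in DN and 3.59 in Ctrl and no peak above 7.21 in DN or 4.96 in Ctrl. The median ratio of DN to Ctrl fold was 0.98 there and 1.103 in all other domains. The lowest fold listed in the stretch was 2.87 in DN and 3.15 in Ctrl, close to the medians there. The part of these unlike floors in the ratio was not tested. The stretch had 3.06 times as much listed length in DN as in Ctrl, beside 2.56 times over the whole lists, and 1.49 DN peaks per Ctrl peak, beside 2.06. The excess of DN length was thus somewhat above that of the whole lists, with fewer DN peaks for each Ctrl peak. Its domains had a median length of 4591 bp, beside 3755 bp elsewhere, and it held 3 of the 5 widest DN-only domains. Without it the classes counted 826 DN-only, 152 shared and 38 Ctrl-only domains.

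**Figure D5:**
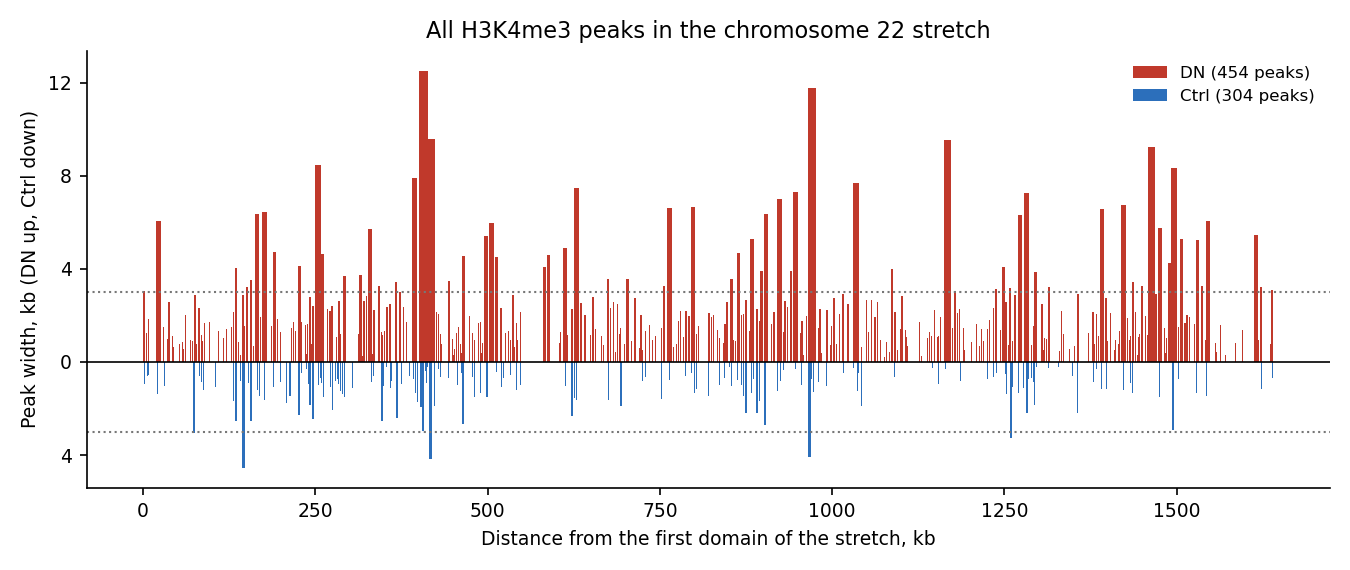
All DN peaks (up) and Ctrl peaks (down) in the chromosome 22 stretch, by distance in kb from the first domain, with bar height and bar breadth giving the peak width in kb and the dotted lines at 3 kb. DN peaks reach 12.5 kb and 69 pass the line, while 5 Ctrl peaks do.

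Runs of high-signal domains were of another kind. Of the 52 high-signal domains broad in both, which lay on 15 chromosomes, 37 (71.2%) lay within 100 kb of another high-signal domain. Over all 1087 domains, 427 (39.3%) lay within 100 kb of another domain of any class. At chr10:16783855-16843427 there were 5 domains broad in both, with folds of 8.25 to 18.4 in DN and 11.5 to 25.0 in Ctrl. At chr2:19429091-19487206 there were 4 domains broad in both and 1 Ctrl-only domain, with folds of 6.35 to 17.7 in DN and 8.49 to 24.1 in Ctrl. These runs held no DN-only domain.

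The run with the most domains broad in both was lower in signal. At chr16:36296076-36461607 stood 7 domains, 1 of them with a mean fold of 7 or more, with a median fold of 6.13 in DN and 6.15 in Ctrl. The fold was lower in DN in 6 of the 7, by little, with ratios of 0.960 to 1.01. The domains held 7 DN peaks and 16 Ctrl peaks, so the DN list had fewer gaps.

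The widths had no break at the threshold. The DN list held 85 peaks of 3000 to under 3100 bp and 97 of 2900 to under 3000 bp, and the Ctrl list 14 and 15 such peaks. The 3 DN peaks next above the threshold, of 3001 to 3002 bp, had folds of 4.52 to 4.96, and the 3 next below it, of 2995 to 2998 bp, folds of 4.32 to 5.54. The 3 Ctrl peaks next above it, of 3008 to 3012 bp, had folds of 4.40, 6.46 and 4.70, and the 3 next below it, of 2985 to 2996 bp, folds of 4.03, 4.61 and 3.68. The DN folds overlapped across the threshold, and the Ctrl folds above it were in part higher. A threshold lower by 100 bp would have added 97 DN and 15 Ctrl peaks.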

How the data were processed

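Per the study's methods and the labels, the authors trimmed reads with Trimmomatic 0.39, kept unique alignments to GRCz11 from STAR 2.7.8a, removed duplicates with Picard 2.25.0, drew equal numbers of read pairs and called broad peaks with MACS2 without a local background, which leaves signal shared with the input in the lists. Each deposited peak has a position, a score (not used), a fold (a ratio to the genome-wide background), and a p-value and q-value as −log10, averaged over the peak. The lists hold no read counts.

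Peaks were joined and compared with Python 3.11.15, pandas 2.3.3, numpy 2.4.6 and scipy 1.17.1, in steps tested on simulated lists. Where a list had several peaks in a domain, the widest gave its width and fold. Depth in fragments was recovered from fold and p-value under a Poisson background, 1.79 fragments in DN and 1.80 in Ctrl before scaling, with the Ctrl scale of 0.914 set by taking its lowest depth as 8 fragments. The members and lists were chosen with earlier results of these data known. Named domains were the 5 longest broad in both, the 5 widest of each other class, the 3 highest folds of each list, the 5 largest and 5 smallest width ratios and the peaks next to the threshold; others were chosen after their values were seen. Alternatives covered width, q-value, depth, merging and overlap rules, run gaps and chromosome 4. Results on genes and sequences were not run, since the gene tables at hand are on another assembly. The 2 mitochondrial DN peaks, and 12 broad DN and 12 broad Ctrl peaks on chromosome 4 from 27000000 on, were left out.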

Additional observations from a re-analysis of the deposited data

Results flagged for a closer look

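The DN list held a peak on the mitochondrial sequence, outside the chromosomes compared, that was as wide as a broad domain. It measured 5711 bp with a fold of 7.27, while the Ctrl list held 0 peaks there. It was singled out because it lies in data that no comparison used, and it was not counted among the domains. The likeness is in width only, and whether this peak reflects H3K4me3 was not tested.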

How the results depend on the processing

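Of 71 values computed under alternatives, 31 stayed within 1.5 times the reported count or within its interval, 37 moved and 3 crossed a ratio of 1. Counts are given as DN-only, both and Ctrl-only domains. They were 2345, 501 and 103 at 2000 bp, 353, 82 and 14 at 4000 bp, 170, 47 and 11 at 5000 bp and, added after seeing the data, 9, 8 and 11 at 10000 bp. Broad DN peaks per broad Ctrl peak were 4.43 at 4000 bp, 3.73 at 5000 bp and 0.85 at 10000 bp. The last value fell below 1, with an interval of 0.418 to 1.71 that spans 1. At a −log10 q of at least 4 the counts were 601, 93 and 13 and the ratio 6.32. This cut asked for a higher fold in Ctrl, which favours a higher ratio. Broad DN peaks had a median fold of 4.60 and −log10 q of 5.05, and broad Ctrl peaks 4.78 and 4.41. The part of this in the ratio was not tested. With the 200 widest DN peaks (5151 bp or more) against the 200 broad Ctrl peaks the counts were 119, 78 and 117, where equal numbers of peaks hold the first and last close. With peaks under 1000 bp apart merged they were 1654, 291 and 66, and with a mutual overlap of 50% there were 68 Ctrl-only domains.

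With the other list held to a −log10 q of at least 4, 22.4% of DN-only domains had a Ctrl peak, 0.448% had 2 or more, and 52.5% of Ctrl-only domains had a DN peak. This cut was the stricter in fold for Ctrl peaks, so the shares of the 2 classes are not on a like footing. Counting peaks within 1000 bp, 42.0% of DN-only domains had 2 or more. The median DN to Ctrl width ratio of domains broad in both was 1.21 at 2000 bp and turned to 0.996 at 5000 bp. In splits chosen after seeing the data it was 1.22 for a mean fold under 7 and turned to 0.979 for 7 or more. Median fold of peaks of 5000 bp or more was 4.80 in DN and 9.80 in Ctrl. The lower DN fold of high-signal domains held in 100% of 55 chosen by Ctrl fold, 86.8% of 53 chosen by DN fold, 76.5% at a mean fold of 5 or more and 100% at 10 or more, with median ratios of 0.747 to 0.866. The cause of these changes was not tested. No paired analysis was possible because a group holds only 1 H3K4me3 library, and the results on genes and sequences were not run.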

Other observations

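On the left-out part of chromosome 4, 12 DN and 12 Ctrl peaks were 3000 bp or more. The widest, chr4:28565721-28577662 in DN and chr4:28565714-28577714 in Ctrl, measured 11942 bp with a fold of 12.9 in DN and 12001 bp with a fold of 20.4 in Ctrl.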
